A study of Mus musculus with 6 samples.

Results

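The genes described here are 31 genes of the lysosome and of its Tfe transcription factors, out of 37991 gene identifiers counted in RNA-seq libraries of mouse pre-B cells. They were listed by symbol, and the rule uses no measured value. They comprise 5 proteins of the lysosomal membrane, 7 cathepsins, 11 hydrolases of carbohydrate chains, 5 proteins of lipid and protein turnover and 3 Tfe factors. All 31 passed the filter on low counts and were among the 16683 genes tested.

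The cells were pre-B cells sorted from the bone marrow of C57BL/6 mice, the strain that all groups share. The labels give B220 high, IgM low and IgD low for all libraries, whereas the methods give that gate for wild type and premalignant cells and a gate of B220+ IgM- IgD- for malignant cells. The 3 stages were wild type cells, premalignant cells and malignant cells, with 2 libraries each and 6 libraries in all. Wild type mice, and premalignant mice that carry 1 copy of the Eμ-Myc transgene (EμMyc/+), were 4 to 6 weeks old. Malignant mice carried the same transgene and were taken at 10 to 20 weeks of age, once lymphoma had developed. In Eμ-Myc mice an enhancer of the immunoglobulin heavy chain drives Myc in B-lineage cells, so that every sorted cell of these mice carries the transgene. The methods give female mice for the wild type and premalignant stages and both sexes for the malignant stage, so that age, sex and, if the methods hold, the gate cannot be told apart from the malignant stage. The libraries are called biological replicates there, and the number of mice behind a library was not given in the sources used here.

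Lysosomes are acidic vesicles in which hydrolases break down proteins, carbohydrate chains and lipids that arrive by endocytosis or autophagy. Tfeb, Tfe3 and Mitf are related transcription factors that bind E-boxes in the promoters of many lysosomal genes. When nutrients are plentiful, the kinase complex mTORC1 on the lysosomal surface phosphorylates them and holds them in the cytoplasm, so that their mRNA level does not give their activity. Myc with its partner Max binds the same E-box core. In B-lineage cells, cathepsins and lysosomal membranes also serve the processing of antigen for presentation.

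Of the 31 genes, 27 had an entry in a table of RefSeq promoters (build GRCm38.p6), each 250 bases before to 50 bases after the start site. Ctsb, Ctsh, Galns and Npc1 had no entry. The E-box CACGTG, which reads the same on both strands, was present in the promoters of 9 of these 27 genes (33.3%), against 8.09% of the 27025 genes of the table. With a T on its 5′ side on either strand (TCACGTG), it was present in 8 of the 27 genes (29.6%), against 4.29% of all genes. The palindrome TCACGTGA, a longer form of the same motif, was present in Ctsa, Ctsd, Gla and Mcoln1, that is 14.8% against 1.12%. A related motif, TCATGTG, was searched on both strands and stood in the promoters of Ctsa, Ctss, Gla, Ppt1 and Tpp1 (18.5% against 4.31% of all genes). A match describes the letters of the promoter and is not evidence of binding. To show how the motif sits, the E-box nearest to the start site is printed below for each of the 9 genes with 12 bases on each side, on the strand of the gene and with the E-box in capitals.
Lamp1: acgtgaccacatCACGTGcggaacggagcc
Mcoln1: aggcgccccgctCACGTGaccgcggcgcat
Ctsa: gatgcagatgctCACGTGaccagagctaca
Ctsd: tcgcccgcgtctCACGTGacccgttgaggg
Ctsl: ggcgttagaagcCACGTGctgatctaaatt
Gaa: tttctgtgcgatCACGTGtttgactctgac
Gla: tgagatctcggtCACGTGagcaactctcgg
Glb1: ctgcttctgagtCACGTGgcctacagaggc
Naglu: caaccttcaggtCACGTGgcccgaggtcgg

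In 8 of these lines a T precedes the E-box, and Ctsl, with a C before it, is the exception. The Lamp1 promoter held 4 E-boxes and that of Mcoln1 2, and the windows printed lie at chr8:13159134-13159163 and chr8:3500462-3500491 on the plus strand. The Ctsd window lies at chr7:142387908-142387937 on the minus strand, and that of Naglu at chr11:101070009-101070038 on the plus strand. In Ctsa the printed E-box begins 5 bases after the start site of the second of its listed promoters.

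Levels are given below as CPM, read counts scaled to a common library size by TMM, or as CPM per kb of exon where genes are compared with each other. A gene was called higher or lower where edgeR's quasi-likelihood test gave an adjusted p of at most 0.1 and the log2 fold change reached 0.5 in either direction. Log2 fold changes are given with their standard error, and n is 2 libraries per stage throughout. With 2 libraries against 2, an exact permutation test of a single gene cannot give a two-sided p below 0.333, so no such test was made.

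Total counts ranged from 30031100 to 53453055 per library, with the replicate 1 libraries deeper in all 3 stages, and 3 counts corresponded to between 0.0526 and 0.107 CPM. Myc, which the Eμ-Myc transgene also encodes, was at 33.7 and 41.4 CPM in wild type. It was at 1155 to 1164 CPM in premalignant and at 1577 to 1731 CPM in malignant cells. Counts per gene do not separate the reads of the transgene from those of the endogenous gene. All 13 pre-B markers were detected in wild type cells, and their summed CPM was 9201 and 9959 there, 5036 and 5067 in premalignant and 4670 and 5299 in malignant cells. Of the 13, 11 were called lower and 0 higher at each transgenic stage (medians of -1.06 and -1.34). Vpreb1 and Igll1, which form the surrogate light chain, fell by 4.06 and 3.78 on the log2 scale in premalignant cells and changed by -5.97 and -5.73 in malignant cells, and Rag1, which cuts immunoglobulin genes for recombination, changed by -2.61 and -4.15. The part of this shift in the changes below was not tested. Markers of other cells were present too and moved with the stage. The 15 granulocyte markers summed to 1151 and 2785 CPM in wild type, 363 and 377 CPM in premalignant and 87.8 and 146 CPM in malignant cells, and 14 of 15 were called lower in premalignant and 15 of 15 in malignant cells. The 15 macrophage and monocyte markers summed to 316 and 394 CPM, 75.1 and 92.4 CPM, and 26.8 and 115 CPM. Of the 14 tested, 8 were called lower and 1 higher in premalignant cells, and 5 lower and 1 higher in malignant cells. Among the 15 markers, the macrophage-defining C1qa, C1qb and C1qc lay below 0.6 CPM in every library. Lyz2 was at 142 and 205 CPM in wild type and at 3.64 and 20.3 CPM in malignant cells. Dendritic cell markers summed to 815 and 774 CPM in wild type and to between 172 and 299.9 CPM in the other libraries, erythroid markers to 381 and 1381 CPM against 56.9 to 167 CPM, and T and NK cell markers to 243 and 90.8 CPM against 5.50 to 40.1 CPM. Cd209a, Cd3e and Vpreb2 were at 0 in at least 1 library, and no other listed marker of these cell types was. Many of the 31 genes are also expressed in myeloid cells, and the part of these cells in the changes below was not tested. In sorted bulk samples, fewer cells of a type and less RNA per cell cannot be told apart.

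**Figure D1:**
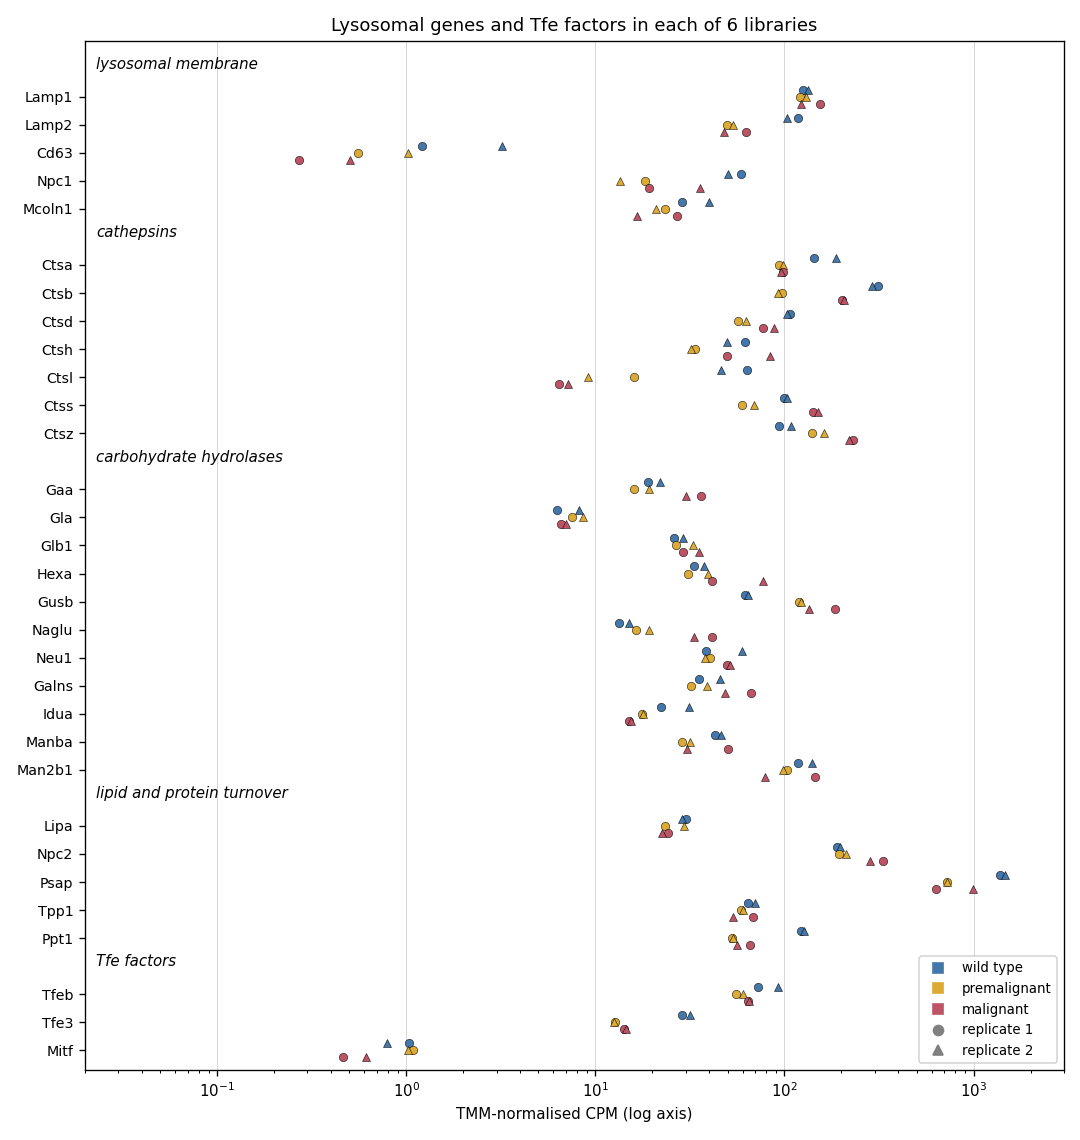
Level of each of the 31 genes in each of the 6 libraries, in TMM-normalised CPM on a log axis, with colours for the stages, circles for replicate 1 and triangles for replicate 2. Psap lies highest, between 636 and 1475 CPM, and Cd63 and Mitf lie lowest, at 0.272 to 3.23 CPM and 0.46 to 1.09 CPM.

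More of the 31 lysosomal and Tfe genes fell than rose in premalignant cells, and 6 of those that fell were cathepsins. Compared with wild type, 13 of the 31 genes were called lower and 2 higher, that is 41.9% and 6.45%. Over all 16683 genes tested, 20.3% were called lower and 19% higher in the same comparison. The median log2 fold change of the 31 genes was -0.50, against -0.08 for all genes. Of the 13, Lamp2, Npc1, Ctsb, Ctsl, Ppt1 and Tfe3 fell by more than 1 on the log2 scale. Summed over the 31 genes, the level was 3517 and 3736 CPM in wild type and 2268 and 2363 CPM in premalignant cells. Without premalignant replicate 1 or replicate 2, or without wild type replicate 2, fewer genes were called lower. This held both among the 31 and over all genes tested. A lone library of a stage is taken to vary as the other stages do in these fits.

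In malignant cells calls went in both directions, as they did over all genes tested. Compared with wild type, 10 of the 31 genes were called lower and 7 higher (32.3% and 22.6%). All genes tested were called lower in 24.3% and higher in 24.9% of cases. The share of the 31 called higher was thus near that of all genes, and the share called lower somewhat above it. The median of the 31 genes was -0.19, against -0.02 for all genes. Their summed level was 2939.6 and 3103 CPM, which lies between the premalignant and the wild type libraries. This position rested on Psap. The other 30 genes summed to 2135 and 2261 CPM in wild type and 1546 and 1639 CPM in premalignant cells. In malignant cells they summed to 2303 and 2111 CPM, so that the malignant and wild type libraries overlapped. Without either wild type library, fewer genes were called in each direction, both among the 31 and over all genes tested.

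Between the 2 transgenic stages, the called changes went up. In malignant compared with premalignant cells, 5 of the 31 genes were called higher (16.1%), against 3.73% of all genes, and 0 were called lower, against 2.45% of all genes. The 5 were Ctsb, Ctss, Gaa, Naglu and Npc2. Without adjustment, 11 genes had a p under 0.05 in edgeR and were higher and 2 were lower (Ctsl and Mitf). The share of all genes at that unadjusted threshold was not computed, and the shares above do not apply to it. DESeq2 called 8 higher and 1 lower (Ctsl). The median of the 31 genes was 0.19, against 0.04 for all genes. Of the 31, 24 had a log2 fold change above 0, a share not computed for all genes. These calls needed both premalignant libraries. Without either of them no gene at all was called in this comparison, and without wild type replicate 1 or 2, which takes no part in the contrast but in the estimate of the spread, 2 of the 31 genes were called. Without malignant replicate 1 or 2, 9 and 10 of the 31 genes were called higher, and over all genes the number called higher went from 623 to 1562 and 1796. With DESeq2 it was 1142.

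**Figure D2:**
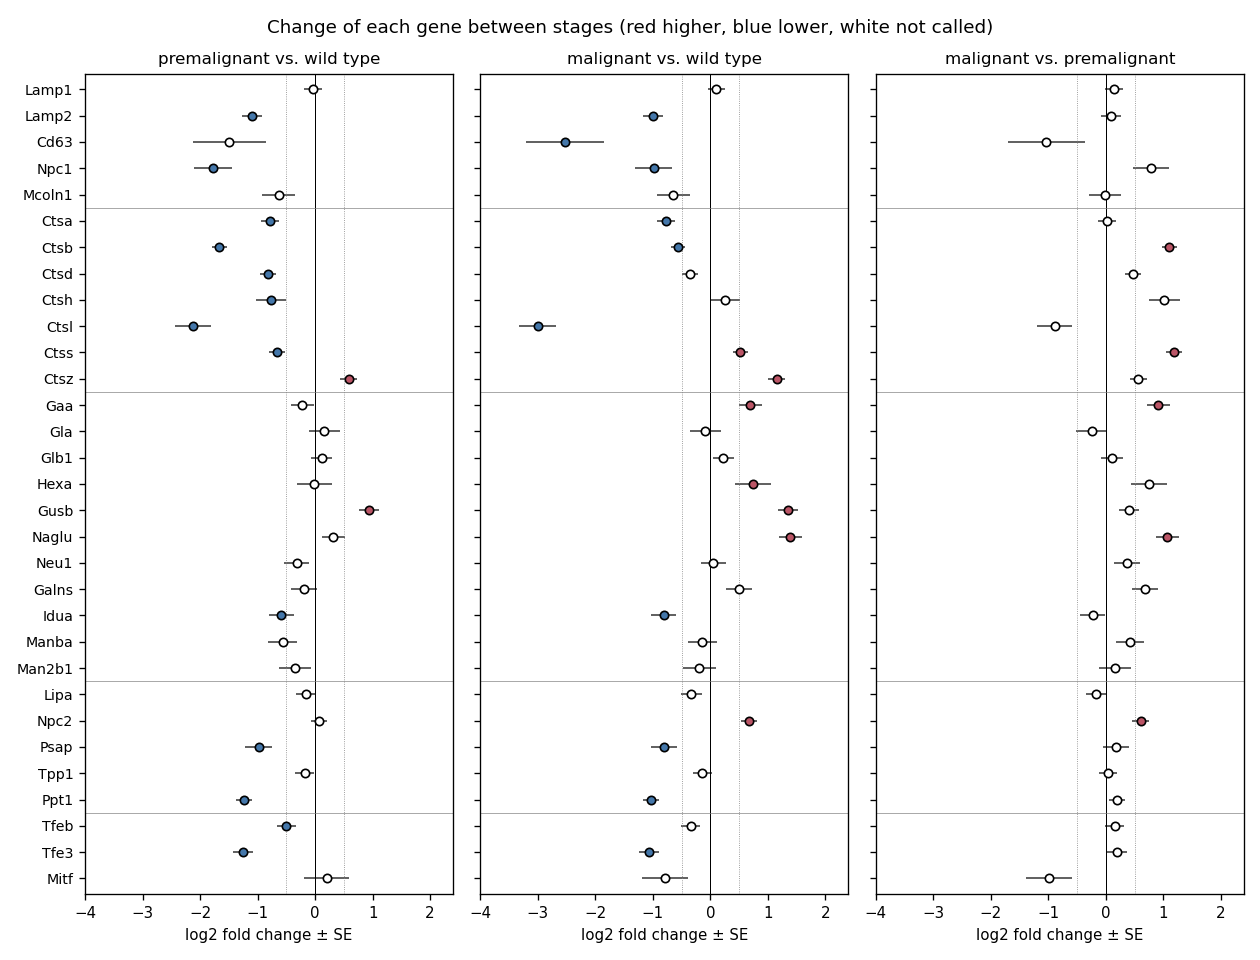
Log2 fold change ± SE of the 31 genes in the 3 comparisons, with 2 libraries per stage; red points were called higher, blue points lower and white points were not called, and dotted lines mark log2 fold changes of 0.5 in either direction. In the left panel 13 points are blue and 2 red, in the middle panel 10 are blue and 7 red, and in the right panel 5 are red and 0 blue.

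Among the Tfe factors, Tfe3 was the most clearly changed, at 2.39-fold lower in premalignant and 2.09-fold lower in malignant cells than in wild type. Tfe3 (ENSMUSG00000000134, chrX:7339686-7352328 in NCBIM37, the mm9 build) was at 28.5 and 31.5 CPM in wild type, 12.6 and 12.5 CPM in premalignant and 14.2 and 14.5 CPM in malignant cells. Its wild type libraries lay far above the other 4, and the replicates of each stage were close to each other. The log2 fold change was -1.26 ± 0.17 (adjusted p = 0.00513) in premalignant and -1.06 ± 0.17 (adjusted p = 0.00502) in malignant cells compared with wild type. Both calls held under every alternative tool, scaling, filter, FDR and set of libraries tried at the same fold threshold, which is what is meant below where a call held in every alternative. Between malignant and premalignant cells it was 0.19 ± 0.17 (adjusted p = 0.605).

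Tfeb, the factor best known for control of lysosome formation, changed less. Tfeb (ENSMUSG00000023990, chr17:47873979-47929368) was at 72.0 and 92.0 CPM in wild type, 55.3 and 60.6 CPM in premalignant and 64.1 and 65.1 CPM in malignant cells. The stages did not overlap, and the wild type libraries differed from each other by more than the premalignant and malignant libraries did. Tfeb was called lower in premalignant cells at the edge of the threshold (-0.50 ± 0.16, adjusted p = 0.0599) and was not called in malignant cells (-0.34 ± 0.16, adjusted p = 0.134). Without wild type replicate 2 the premalignant change was -0.31 (adjusted p = 0.263), and without premalignant replicate 1 or 2 it was -0.43 (adjusted p = 0.308) and -0.56 (adjusted p = 0.226). With either malignant library left out it was -0.49 and -0.44, under the fold threshold, and without wild type replicate 1 Tfeb was called lower in malignant cells (-0.51, adjusted p = 0.069).

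Mitf, which drives pigment cell and osteoclast genes, was near the limit of these libraries. It was at 1.03 and 0.792 CPM in wild type, 1.09 and 1.02 CPM in premalignant and 0.46 and 0.609 CPM in malignant cells. The malignant libraries lay below the others, and the change from wild type was -0.78 ± 0.40 (adjusted p = 0.164). Per kb of exon, the wild type level of Tfeb was 14.5 CPM, that of Tfe3 3.24 CPM and that of Mitf 0.146 CPM. This order of the 3 factors was the same in premalignant (10.2, 1.36 and 0.169 CPM per kb) and malignant cells (11.4, 1.55 and 0.0858 CPM per kb). The annotation gives these genes long exons (5669 bases for Tfeb and 9261 for Tfe3), which lowers values per kb if the cells use shorter transcripts.

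**Figure D3:**
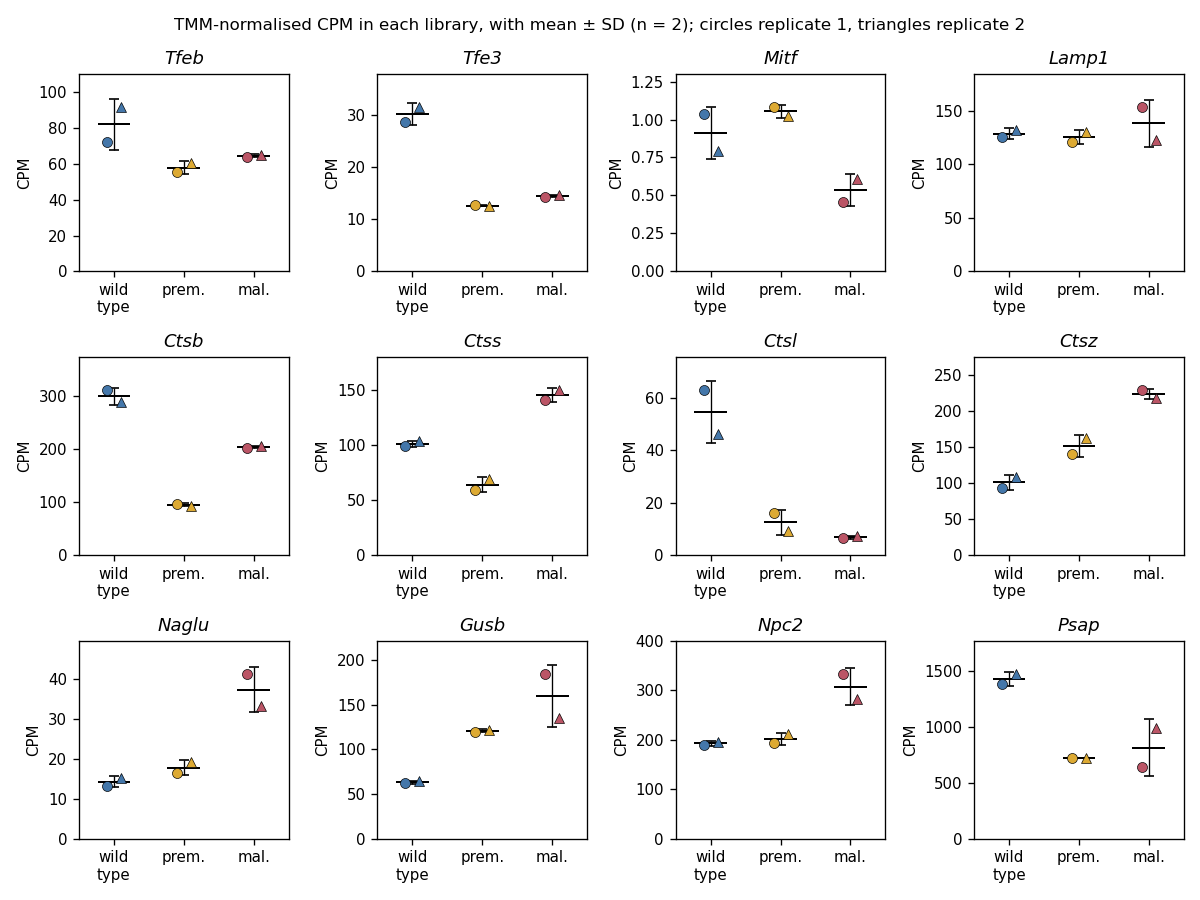
Level of 12 of the genes in each library, in TMM-normalised CPM on linear axes that start at 0; circles are replicate 1, triangles replicate 2, and black lines show the mean ± SD of the 2 libraries. Tfe3 and Psap are highest in wild type, Ctsb and Ctss dip in premalignant cells, Ctsl falls at both stages, and Ctsz, Gusb, Naglu and Npc2 are highest in malignant cells.

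The cathepsins were the group with the most calls. In premalignant cells 6 of the 7 were called lower and 1, Ctsz, higher, with a median log2 fold change of -0.79. In malignant cells 3 were lower and 2 higher than wild type, and 2 were higher than in premalignant cells. As shares, 85.7% were lower in premalignant cells, against 20.3% of all genes tested. In malignant cells 42.9% were lower and 28.6% higher than wild type, against 24.3% and 24.9% of all genes. Against premalignant cells 28.6% were higher, compared with 3.73% of all genes. Summed over the 7 genes, the level was 880.1 and 888 CPM in wild type, 497 and 526 CPM in premalignant and 804 and 850.1 CPM in malignant cells.

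Ctsb and Ctss, both cysteine proteases that also act in antigen processing, dipped in premalignant cells and were higher again in malignant cells. Ctsb (ENSMUSG00000021939, chr14:63741302-63764758) was at 312 and 289 CPM in wild type, 96.8 and 92.8 CPM in premalignant and 203 and 206 CPM in malignant cells. The 3 stages were well apart, and the 2 libraries of each stage were close. The log2 fold changes from wild type were -1.66 ± 0.13 (adjusted p = 0.00173) in premalignant and -0.56 ± 0.12 (adjusted p = 0.0132) in malignant cells, and malignant cells exceeded premalignant cells by 1.11 ± 0.12 (adjusted p = 0.0199). Of the exon length of Ctsb, 16.2% overlaps Fdft1 on the opposite strand, and reads of the 2 genes cannot be told apart there in these unstranded libraries.

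Ctss, which trims the invariant chain of MHC class II, was at 99.3 and 103 CPM in wild type, 59.4 and 68.7 CPM in premalignant and 141 and 150.1 CPM in malignant cells. It is the gene of the 31 that was called lower in the premalignant and higher in the malignant stage. The log2 fold changes were -0.66 ± 0.13 (adjusted p = 0.0154) and 0.52 ± 0.13 (adjusted p = 0.0223) compared with wild type, and 1.18 ± 0.14 (adjusted p = 0.0204) between malignant and premalignant cells. Within the replicate 1 libraries alone the last difference was 1.25, and within the replicate 2 libraries 1.13. Equal replicate numbers are not known to pair libraries, so that this matching is arbitrary. For Ctsb the same differences were 1.06 and 1.15.

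Some of these calls were lost with 1 library left out, while the changes kept their direction and most of their size. In malignant vs. premalignant, this loss was shared by every gene called, as given above. Without premalignant replicate 1 or 2, the malignant vs. premalignant change of Ctsb was 1.14 and 1.08 (adjusted p = 0.289 and 0.253) and that of Ctss 1.08 and 1.29 (adjusted p = 0.301 and 0.206). Without wild type replicate 1, neither Ctsb (-0.50) nor Ctss (0.50) was called in malignant vs. wild type, and without premalignant replicate 1 or 2 the premalignant change of Ctss was -0.55 and -0.76 (adjusted p = 0.165 and 0.104).

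Ctsl and Ctsz moved in opposite directions. Ctsl, a cysteine protease of the same family (ENSMUSG00000021477, chr13:64464522-64471614), was at 63.1 and 46.4 CPM in wild type, 16.0 and 9.18 CPM in premalignant and 6.44 and 7.20 CPM in malignant cells. No library of one stage reached the range of another. Its log2 fold change was -2.12 ± 0.31 (adjusted p = 0.00592) in premalignant and -3.01 ± 0.32 (adjusted p = 0.00139) in malignant cells, the largest fall among the 31 genes at both stages. Ctsz, a carboxypeptidase, was at 93.3 and 108 CPM in wild type, 140.2 and 163 CPM in premalignant and 229 and 219 CPM in malignant cells. It was the cathepsin that was higher at both transgenic stages, by 0.59 ± 0.15 (adjusted p = 0.0277) and 1.15 ± 0.15 (adjusted p = 0.00222). Its premalignant call was lost without wild type replicate 1 (0.49, adjusted p = 0.109) and without premalignant replicate 1 (0.70, adjusted p = 0.111) or 2 (0.48, adjusted p = 0.225), and its malignant call held in every alternative. Against premalignant cells Ctsz changed by 0.57 ± 0.15 (adjusted p = 0.109), and it was called higher there without malignant replicate 1 (0.53, adjusted p = 0.0986) or 2 (0.56, adjusted p = 0.0609).

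Ctsa, the protective protein of Neu1 and Glb1, was at 144 and 187 CPM in wild type and between 93.9 and 98.2 CPM in the 4 transgenic libraries. It was lower in premalignant (-0.79 ± 0.16, adjusted p = 0.0153) and malignant cells (-0.77 ± 0.16, adjusted p = 0.0112), and 17.4% of its exon length overlaps Neurl2 and Pltp on the opposite strand. Ctsd, the main aspartic protease, was at 107 and 103 CPM, 56.8 and 62.9 CPM, and 77.4 and 88.1 CPM in the 3 stages, and was called lower in premalignant cells (-0.82 ± 0.14, adjusted p = 0.00903). In malignant cells it missed the fold threshold (-0.35 ± 0.14, adjusted p = 0.0846). Ctsh, an aminopeptidase, was at 61.5 and 49.9 CPM, 33.7 and 31.9 CPM, and 49.4 and 83.6 CPM, with the malignant libraries apart from each other. It was called lower in premalignant cells (-0.76 ± 0.27, adjusted p = 0.0723), and this call was lost with any wild type or premalignant library left out (-0.60 to -0.90, adjusted p from 0.157 to 0.296). The premalignant calls of Ctsa and Ctsd were lost too, that of Ctsa without premalignant replicate 1 (-0.75, adjusted p = 0.134) or 2 (-0.81, adjusted p = 0.124), and that of Ctsd without premalignant replicate 1 (-0.74, adjusted p = 0.109). Without malignant replicate 1, Ctsh was called higher in malignant cells than in wild type (0.59, adjusted p = 0.0277) and premalignant cells (1.35, adjusted p = 0.00696), and Ctsd than in premalignant cells (0.56, adjusted p = 0.0575).

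The order of the cathepsin levels differed between the stages. Per kb of exon, the order in wild type was Ctss (74.6 CPM), Ctsz (70.0 CPM), Ctsb (63.4 CPM), Ctsd (41.8 CPM), Ctsa (35.1 CPM), Ctsl (27.7 CPM) and Ctsh (16.1 CPM). The wild type replicates of Ctss and Ctsz overlapped, as did those of Ctsz and Ctsb and of Ctsa and Ctsl. These neighbours did not differ beyond their spread. In malignant cells Ctsz was at 155 CPM per kb, Ctss at 107, Ctsb at 43.1 and Ctsl at 3.45, the last of the 7. In premalignant cells the values were 105 for Ctsz, 47.2 for Ctss, 20.0 for Ctsb and 6.37 for Ctsl.

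Of the 11 hydrolases of carbohydrate chains, 9 were not called in premalignant cells, and 4 were higher in malignant cells. In premalignant cells 1 was called higher (Gusb) and 1 lower (Idua), with a median log2 fold change of -0.19. In malignant cells 4 were higher (Gusb, Naglu, Gaa and Hexa) and 1 lower (Idua) than wild type, with a median of 0.23. Of these, Naglu and Gaa were also higher than in premalignant cells. As shares, 9.09% were called each way in premalignant cells, against 20.3% lower and 19% higher over all genes tested. In malignant cells 36.4% were higher and 9.09% lower than wild type, against 24.9% and 24.3% of all genes. Against premalignant cells 18.2% were higher, compared with 3.73% of all genes. The summed level was 416 and 498 CPM in wild type, 439 and 465 CPM in premalignant and 665 and 543 CPM in malignant cells.

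Naglu, which removes N-acetylglucosamine from heparan sulfate, was at 13.3 and 15.1 CPM in wild type, 16.3 and 19.1 CPM in premalignant and 41.2 and 33.2 CPM in malignant cells. The malignant libraries stood apart, while the wild type and premalignant libraries were near each other. The increase over wild type was 1.39 ± 0.20 (adjusted p = 0.0033) and that over premalignant cells 1.07 ± 0.20 (adjusted p = 0.0531). Gaa, the acid maltase that breaks down glycogen, was at 19 and 22 CPM, 16.0 and 19.3 CPM, and 36.4 and 30.1 CPM, again with only the malignant libraries apart. It rose by 0.69 ± 0.20 over wild type (adjusted p = 0.0317) and by 0.91 ± 0.20 over premalignant cells (adjusted p = 0.0757). Both comparisons with premalignant cells were lost with any wild type or premalignant library left out (0.96 to 1.19 for Naglu, with adjusted p from 0.129 to 0.483, and 0.78 to 1.06 for Gaa, with adjusted p from 0.161 to 0.559), and the call of Gaa against wild type was lost without wild type replicate 1 (0.59, adjusted p = 0.144).

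Gusb, the β-glucuronidase used as a reference gene in some studies, rose at both stages. It was at 62.0 and 64.3 CPM in wild type, 119.7 and 122 CPM in premalignant and 185 and 135 CPM in malignant cells. The stages were apart and the malignant libraries differed from each other. The log2 fold changes were 0.94 ± 0.17 (adjusted p = 0.0118) and 1.34 ± 0.18 (adjusted p = 0.00245) compared with wild type, and both held in every alternative. Against premalignant cells the malignant level was called without malignant replicate 2 (0.58, adjusted p = 0.031) and not with it (0.41 ± 0.17, adjusted p = 0.265). Idua, the α-L-iduronidase, went down, from 22.2 and 31.3 CPM to 17.7 and 17.9 CPM and then 15.0 and 15.4 CPM (-0.59 ± 0.22, adjusted p = 0.0843, and -0.81 ± 0.22, adjusted p = 0.0254). Without wild type replicate 2 neither change of Idua was called (-0.32, adjusted p = 0.419, and -0.55, adjusted p = 0.156), and the premalignant one was also lost without either premalignant library (-0.57 and -0.59).

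Hexa, a subunit of β-hexosaminidase, was at 33.3 and 37.7 CPM in wild type, 30.9 and 39.5 CPM in premalignant and 41.4 and 77.1 CPM in malignant cells. Its rise over wild type (0.74 ± 0.31, adjusted p = 0.0979) was carried by malignant replicate 2, and without that library it was 0.25 (adjusted p = 0.318). The call was also lost without any 1 library of the wild type or premalignant stage (0.66 to 0.83, adjusted p from 0.141 to 0.305). The other 6 genes were not called in any comparison. These were Gla (α-galactosidase), Glb1 (β-galactosidase), Neu1 (a sialidase), Galns (a sulfatase), Manba and Man2b1 (mannosidases), with levels from 6.29 to 145 CPM. Several of these values turned on a malignant library. Without malignant replicate 1, Manba (-0.54, adjusted p = 0.0289) and Man2b1 (-0.69, adjusted p = 0.0145) were called lower than in wild type, and without malignant replicate 2, Galns (0.73, adjusted p = 0.0221) was called higher. Against premalignant cells, Galns (0.86) and Manba (0.70) were called higher without malignant replicate 2 and Hexa (1.13) without malignant replicate 1. In premalignant cells, Manba was called lower without malignant replicate 1 (-0.55) or 2 (-0.50) and Neu1 without wild type replicate 1 (-0.59). Glb1 has a second identifier in the annotation that shares 5.62% of its exon length on the same strand, and its values are uncertain to that extent. The second identifier was at 12.4 and 10.8 CPM in wild type, 19.7 and 14.3 CPM in premalignant and 22.2 and 15.6 CPM in malignant cells. Compared with wild type, it was called higher in malignant cells (0.70, adjusted p = 0.0825) and not called in premalignant cells (0.55, adjusted p = 0.173). What is said of Glb1 elsewhere is for the first identifier.

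Of the 5 lysosomal membrane proteins, 2 were called lower in premalignant cells (Lamp2 and Npc1) and 3 in malignant cells (Lamp2, Npc1 and Cd63), and 0 were called higher in any comparison. The lower shares are 40% and 60%, against 20.3% and 24.3% of all genes tested, and rest on 5 genes. Lamp1, the abundant glycoprotein that lines the lysosome (ENSMUSG00000031447, chr8:13159135-13175338), was at 125 and 132 CPM in wild type, 121 and 130.4 CPM in premalignant and 154 and 123 CPM in malignant cells. The stages overlapped, and the log2 fold changes were -0.04 ± 0.15, 0.10 ± 0.15 and 0.14 ± 0.15 (adjusted p from 0.620 to 0.880) in the 3 comparisons. Its relative Lamp2, which also serves chaperone-mediated autophagy, was at 118 and 103 CPM in wild type, 49.8 and 53.6 CPM in premalignant and 62.4 and 48.0 CPM in malignant cells. Both transgenic stages lay below wild type, by -1.09 ± 0.17 (adjusted p = 0.00748) and -0.997 ± 0.17 (adjusted p = 0.0062), under every alternative. Between the transgenic stages it changed by 0.10 ± 0.17 (adjusted p = 0.819).

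Npc1, the membrane protein that exports cholesterol from the lysosome, was at 58.8 and 50.2 CPM in wild type, 18.3 and 13.5 CPM in premalignant and 19.3 and 35.8 CPM in malignant cells. All wild type values lay above all others, and the malignant libraries differed by 1.85-fold. It was lower in premalignant (-1.78 ± 0.33, adjusted p = 0.0114) and malignant cells (-0.99 ± 0.32, adjusted p = 0.0469). The first call was lost without premalignant replicate 2 (-1.57, adjusted p = 0.104) and the second without wild type replicate 1 (-0.87, adjusted p = 0.19) or 2 (-1.09, adjusted p = 0.125), while without malignant replicate 1 Npc1 was called higher in malignant than in premalignant cells (1.16, adjusted p = 0.0213).

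Mcoln1, the calcium channel of the lysosome, was at 28.7 and 39.8 CPM, 23.3 and 20.9 CPM, and 27.1 and 16.6 CPM and was not called in any comparison. Without malignant replicate 1 it was called lower in malignant (-1.03, adjusted p = 0.0121) and premalignant cells (-0.62, adjusted p = 0.0306), and without malignant replicate 2 in premalignant cells (-0.57, adjusted p = 0.0404). Cd63, a tetraspanin of late endosomes and exosomes, was low in these cells, at 1.21 and 3.23 CPM in wild type, 0.552 and 1.02 CPM in premalignant and 0.272 and 0.502 CPM in malignant cells. It was called lower in malignant cells (-2.53 ± 0.67, adjusted p = 0.0253) and not in premalignant cells (-1.49 ± 0.64, adjusted p = 0.121). Without wild type replicate 2, the higher of the wild type libraries, the malignant change was -1.66 (adjusted p = 0.14). Without wild type replicate 1 or either malignant library the premalignant change was called, at -2.03, -1.49 and -1.43 (adjusted p from 0.0722 to 0.093).

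In lipid and protein turnover, Psap and Ppt1 fell and Npc2 rose. Psap encodes prosaposin, the precursor of the saposins that present sphingolipids to their hydrolases. It was the highest of the 31 genes per kb of exon at all 3 stages, with 524 CPM per kb in wild type, and gave 39.3% and 39.5% of the summed CPM of the 31 genes there. Psap (ENSMUSG00000004207, chr10:59740375-59765345) was at 1383 and 1475 CPM in wild type, 722 and 724 CPM in premalignant and 636 and 992 CPM in malignant cells. The wild type libraries were above the rest, and the malignant libraries lay on both sides of the premalignant ones. Its log2 fold changes were -0.98 ± 0.23 (adjusted p = 0.0228) and -0.81 ± 0.23 (adjusted p = 0.0299), and without wild type replicate 2 they were -0.93 (adjusted p = 0.122) and -0.76 (adjusted p = 0.132), while without premalignant replicate 1 or 2 the first was -0.97 (adjusted p = 0.154) and -0.98 (adjusted p = 0.163).

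Ppt1, which removes palmitate from proteins, was at 122 and 127 CPM in wild type, 52.7 and 53.5 CPM in premalignant and 65.5 and 55.9 CPM in malignant cells. It was lower by -1.23 ± 0.14 (adjusted p = 0.00301) and -1.04 ± 0.14 (adjusted p = 0.00259) on the log2 scale, under every alternative. Npc2, the soluble partner of Npc1 in cholesterol export, was at 189 and 196 CPM, 193 and 211 CPM, and 334 and 282 CPM. Only the malignant libraries stood apart, with a rise of 0.68 ± 0.14 (adjusted p = 0.0116) over wild type and of 0.61 ± 0.14 (adjusted p = 0.0911) over premalignant cells. The second call was lost with any library but malignant replicate 2 left out (0.48 to 0.67), and the first held in every alternative. Lipa, the acid lipase (22.6 to 30.3 CPM), and Tpp1, a tripeptidase (53.5 to 70.2 CPM), were not called in any comparison.

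Among the genes with an E-box, the calls were all lower in premalignant cells and went both ways in malignant cells compared with wild type. Between malignant and premalignant cells they were all higher. Of the 9 genes with CACGTG in the promoter window, 3 were called lower in premalignant cells (Ctsa, Ctsd and Ctsl) and 0 higher. In malignant cells compared with wild type 2 were lower (Ctsa and Ctsl) and 2 higher (Gaa and Naglu), and the same 2, Gaa and Naglu, were higher than in premalignant cells. Lamp1, Mcoln1, Gla and Glb1 were not called. The medians of the 9 were -0.22, -0.09 and 0.11 in the same order of comparisons. For the 18 genes with a promoter entry and no E-box they were -0.43, -0.26 and 0.18. Of these 18, 7 were lower and 2 higher in the first comparison, 6 and 5 in the second and 0 and 2 in the third. Over all genes tested, 20.3%, 24.3% and 2.45% were called lower and 19%, 24.9% and 3.73% higher in these comparisons. No test between the groups was made.

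Few of these genes differed between the wild type replicates. Counting a ratio of at least 2 either way among genes with a mean of at least 1 CPM, 1 of 30 genes differed between them, which is 3.33%, against 4.32% of 12830 genes tested. That gene was Cd63, 2.67-fold higher in replicate 2. The next largest differences were in Neu1 (38.5 and 59.3 CPM), Idua (22.2 and 31.3 CPM) and Mcoln1 (28.7 and 39.8 CPM), all higher in replicate 2, and in Ctsl (63.1 and 46.4 CPM), lower in replicate 2. In all, 23 of the 30 genes were higher in replicate 2. Their median ratio was 1.10, against 0.984 for all genes tested with a mean of at least 1 CPM. Over the same libraries, the summed level of the granulocyte markers differed by 2.42-fold, of the erythroid markers by 3.62-fold and of the macrophage and monocyte markers by 1.25-fold, all higher in replicate 2. The T and NK cell markers were lower in replicate 2, at 0.373 of replicate 1, and the dendritic cell markers were at 0.950 of it. Immediate-early genes, a list known from earlier results to differ between these libraries, were 10.8-fold higher in replicate 2. The summed level of the 31 genes was 3517 and 3736 CPM.

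Within the other stages, 0 of 30 genes differed by 2-fold in premalignant cells, where 1.74% of 12124 genes did, and 0 of 29 in malignant cells, where 12.4% of 12073 genes did. The ratios ran from 0.575 for Ctsl to 1.28 for Hexa in premalignant cells and from 0.545 for Man2b1 to 1.86 for Hexa in malignant cells. These comparisons are of 1 library with 1 library and have no test.

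**Figure D4:**
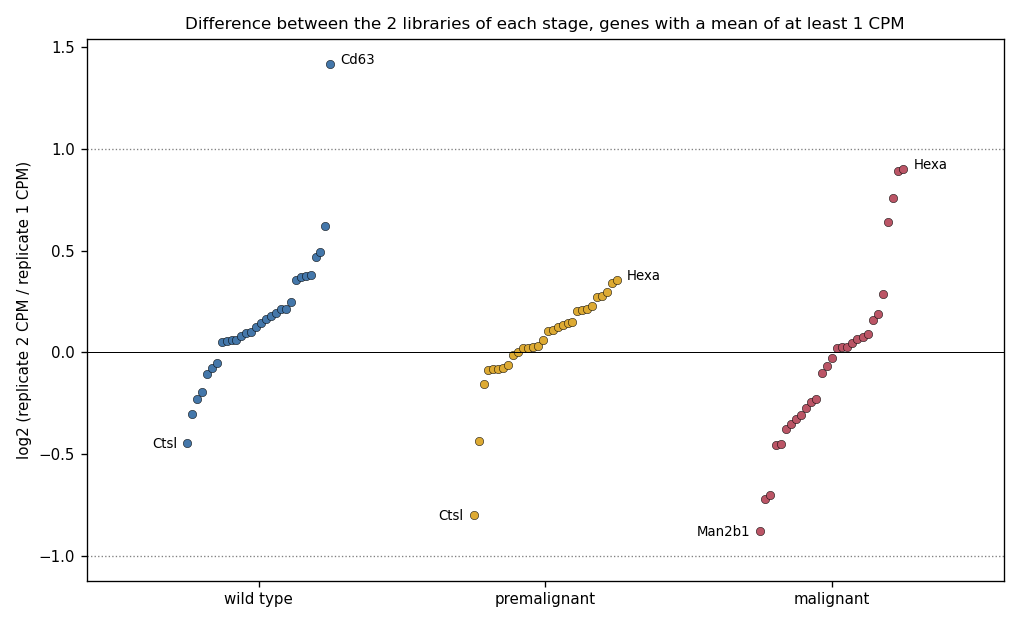
Log2 ratio of replicate 2 to replicate 1 for each gene with a mean of at least 1 CPM, sorted within each stage (30, 30 and 29 genes); dotted lines mark a 2-fold difference and the lowest and highest genes are named. Cd63 in wild type is the point beyond the lines, and the points spread most in malignant cells.

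The rest of the lysosomal pathway was read from lists of 131 further genes, of which 127 were tested. In premalignant cells 41 were called lower and 6 higher (32.3% and 4.72%, against 20.3% and 19% of all genes), with a median of -0.37 against -0.08 for all genes. In malignant cells 42 were lower and 14 higher than wild type (33.1% and 11%, against 24.3% and 24.9%), with a median of -0.32 against -0.02. In malignant compared with premalignant cells 9 were higher and 1 lower (7.09% and 0.787%, against 3.73% and 2.45%), with a median of 0.01 against 0.04. By group, 16 of 33 other hydrolases and activators were lower and 2 higher in premalignant cells, and 10 lower and 4 higher in malignant cells. Of 22 other membrane proteins 9 were lower and 0 higher, then 8 lower and 1 higher. Of 17 tested subunits of the V-ATPase, the pump that acidifies the lysosome, 7 were lower and 0 higher, then 9 lower and 1 higher. By contrast, of 12 genes that sort hydrolases to the lysosome 1 was lower and 2 higher, then 1 lower and 3 higher. As shares of the tested genes, the lower calls in premalignant cells were 48.5%, 40.9%, 41.2% and 8.33% in these 4 groups, and in malignant cells 30.3%, 36.4%, 52.9% and 8.33%.

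Laptm5, a lysosomal membrane protein of blood cells, was at 736 and 696 CPM in wild type, 130.2 and 107 CPM in premalignant and 81.0 and 89.4 CPM in malignant cells, a change of -2.59 ± 0.16 (adjusted p = 0.00147) in premalignant cells. Sort1, a sorting receptor, fell from 24.5 and 27.8 CPM to 2.84 and 2.77 CPM (-3.22 ± 0.70, adjusted p = 0.0183) and was at 0.627 and 3.22 CPM in malignant cells. Ctsw, a cathepsin of T and NK cells, fell by 3.97 on the log2 scale in premalignant cells (adjusted p = 0.0284). In malignant cells it fell by 5.01 (adjusted p = 0.0118). The T and NK cell markers went from 243 and 90.8 CPM in wild type to between 5.50 and 40.1 CPM. The part of these cells in the fall of Ctsw was not tested. Upward, Naaa, which breaks down N-acylethanolamines, went from 5.38 and 6.88 CPM to 13.8 and 18.9 CPM and then 33.7 and 32.1 CPM (1.41 ± 0.24, adjusted p = 0.0091, and 2.43 ± 0.25, adjusted p = 0.0012). Gga2, an adaptor that carries hydrolases from the Golgi, rose by 1.22 ± 0.15 in premalignant cells (adjusted p = 0.00402). Nagpa, which uncovers the mannose 6-phosphate tag of hydrolases, rose by 1.67 ± 0.33 in malignant cells (adjusted p = 0.00965).

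In malignant compared with premalignant cells, 6 of the 33 other hydrolases were higher (18.2%, against 3.73% of all genes tested) and 0 lower (against 2.45%). Among them were Scpep1, a carboxypeptidase (1.19 ± 0.21, adjusted p = 0.0479), and Creg1, a secreted and lysosomal glycoprotein (1.08 ± 0.18, adjusted p = 0.0443). Scpep1 was at 72.2 and 73.3 CPM in wild type, 32.6 and 35.4 CPM in premalignant and 92.6 and 62.1 CPM in malignant cells, with both premalignant libraries the lowest. Creg1 was at 21.5 and 28.2 CPM, 34.3 and 38.1 CPM, and 81.9 and 71.3 CPM, and so rose at each stage.

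**Figure D5:**
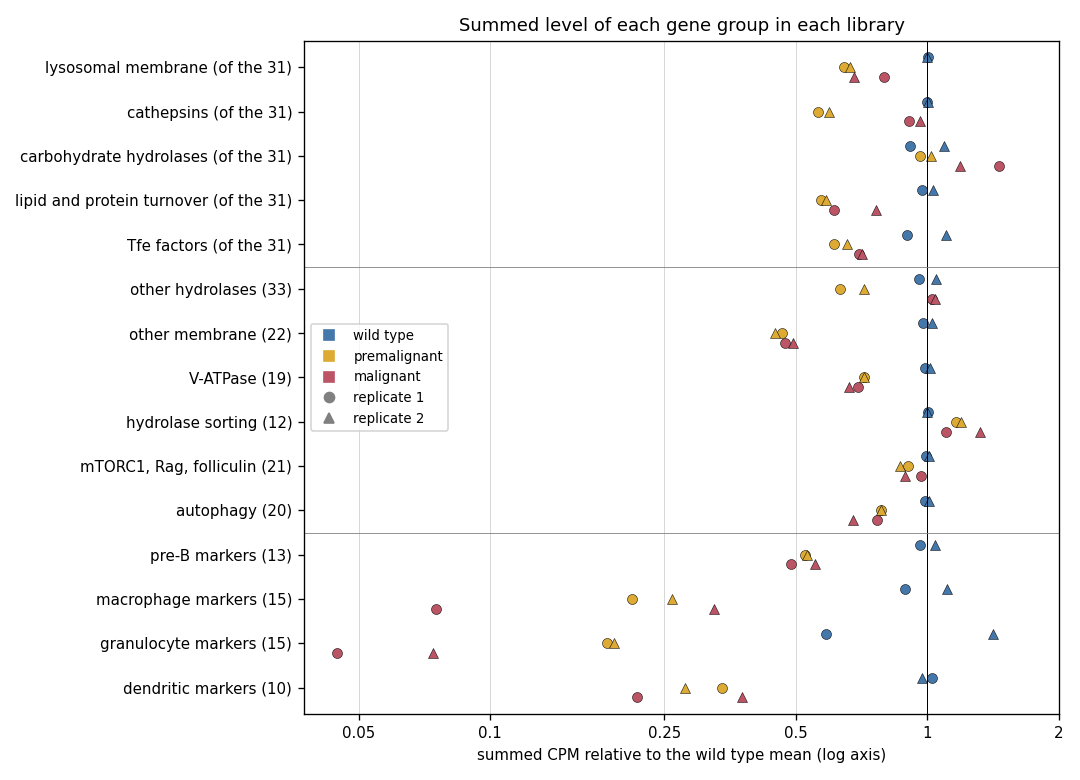
Summed CPM of each gene group in each library, relative to the mean of the 2 wild type libraries, on a log axis; the upper block holds the 31 genes by role, the middle block other genes of the pathway and the lower block marker lists, with the number of genes in parentheses. The summed cathepsins lie at 0.562 and 0.595 in premalignant and at 0.910 and 0.962 in malignant cells, while the granulocyte markers lie at 0.185 and 0.191 and at 0.0446 and 0.074.

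For the controllers of the Tfe factors, the shares called in the comparisons with wild type did not exceed those of all genes. Of 20 tested genes for mTORC1, the Rag GTPases, the Ragulator complex and folliculin, 2 were higher and 2 lower in premalignant cells. In malignant cells 4 were higher and 4 lower than wild type. That is 10.0% and 20.0% each way, with medians of -0.11 and -0.07. Over all genes tested, 19% were higher and 20.3% lower in premalignant cells, and 24.9% and 24.3% in malignant cells. In malignant vs. premalignant cells 1 was lower (5%, against 2.45% of all genes) and 0 higher. Rragb, a Rag GTPase, rose from 3.77 and 3.99 CPM to 13.5 and 15.7 CPM in premalignant cells (1.91 ± 0.36, adjusted p = 0.0127) and was at 21.3 and 10.7 CPM in malignant cells (2.05 ± 0.37, adjusted p = 0.00667). Rragd, the Rag GTPase that is itself a target of Tfe factors, was at 14.8 and 13.5 CPM in wild type, 8.55 and 7.29 CPM in premalignant and 0.355 and 2.83 CPM in malignant cells (-3.18 ± 0.85, adjusted p = 0.0256, in malignant vs. wild type). Tsc2, a brake on mTORC1, was at 74.1 and 85.0 CPM, 68.1 and 68.1 CPM, and 40.7 and 39.3 CPM, and was lower in malignant than in premalignant cells (-0.77 ± 0.14, adjusted p = 0.0491).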

How the data were processed

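Members were taken by symbol from the stated list, and the members, gene lists and tests were chosen with earlier results of these data known. Per the labels, CASAVA 1.8.2, Bowtie, HTSeq and DESeq were used on mm9; the methods name TopHat for the alignment of the 50-base reads. The authors deposited raw HTSeq counts per Ensembl gene for each of the 6 libraries. The options of HTSeq were not given in the sources used here, and the TruSeq v2 kit does not mark strand. The authors also deposited tables of group means, fold changes and p-values from DESeq, which were not used.

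Identifiers were matched to GENCODE vM1 (NCBIM37), which gave a symbol for 37205 of 37991 and none for 786; Tfeb and Tfe3 are Tcfeb and Tcfe3 there. The edgeR 4.0.16 quasi-likelihood test (R 4.3.3) was fitted to all 6 libraries with TMM scaling and filterByExpr, and p-values were adjusted by Benjamini-Hochberg over 16683 genes. SE is the log2 fold change divided by the square root of F. TMM takes most genes as unchanged, so that a change in total RNA would not be seen. DESeq2 1.42.0, other scalings, filters, thresholds, a replicate block and each library left out were alternatives. Values per library are given for Lamp1, the Tfe factors, members called in malignant vs. premalignant cells, members that differ between wild type replicates and those whose log2 fold change reached 1 in either direction, and further members where a result turned on them. Other pathway genes were named as the up to 3 largest called changes per comparison and direction with at least 10 CPM and no overlap. A gene that this rule names is not reported here.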

Additional observations from a re-analysis of the deposited data

How the results depend on the processing

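Of 37 calls among the 93 gene and comparison pairs, 15 held under every alternative at the same fold threshold, and none of the 1302 alternative values reversed a call. For members lower in premalignant vs. wild type (13), the count was 6 at a fold threshold of 1 on the log2 scale and 6 to 15 with 1 library left out. For members higher there (2), it was 1 with upper-quartile scaling, 0 at that fold threshold and 1 to 2 with 1 library left out. In malignant vs. wild type, members lower (10) were 4 at it and 6 to 13 with 1 library left out, and members higher (7) were 3 and 4 to 8. In malignant vs. premalignant, members higher (5) were 8 with DESeq2, 10 without a filter on low counts, 2 in a fit of only these stages, 2 at an FDR of 0.05, 3 at the fold threshold of 1 and 0 to 10 with 1 library left out. Members lower there (0) were 1 with DESeq2 and 1 without the filter, each time Ctsl. A replicate block gave 3 members higher in malignant vs. premalignant (5 without it), 12 lower in premalignant vs. wild type (13) and otherwise the same counts. Under it Gaa (0.92, adjusted p = 0.107) and Npc2 (0.61, adjusted p = 0.131) in malignant vs. premalignant and Idua (-0.57, adjusted p = 0.111) and Tfeb (-0.50, under the fold threshold) in premalignant vs. wild type were no longer called, and Cd63 was called lower in premalignant vs. wild type. The sources do not say that equal replicate numbers mark a shared animal, litter or batch, so that the block is an alternative only. The deviations of same-numbered libraries correlated at 0.51, 0.19 and 0.26 over genes for the 3 pairs of stages, with 2 pairs of libraries each. A ratio of 1.5 in place of 2 gave 2 genes that differ between the wild type replicates (1), the second being Neu1. Upper-quartile scaling shifted the all-gene median by -0.17 on the log2 scale in malignant vs. wild type. With it, other pathway genes higher were 3 (6) in premalignant vs. wild type and 9 (14) in malignant vs. wild type, and lower were 3 (1) in malignant vs. premalignant, where 487 genes in all were called higher and 492 lower (623 and 408 with TMM). The cause of these differences was not tested.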

Other observations

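Autophagy delivers cargo to the lysosome. Of 20 listed genes for it, 5 were called lower in premalignant cells and 9 in malignant cells compared with wild type, and 0 were higher in either. These are 25.0% and 45.0%, against 20.3% and 24.3% of all genes called lower, so that the premalignant share is near that of all genes. The list had medians of -0.31 and -0.49 against -0.08 and -0.02 for all genes. Sqstm1, the autophagy receptor p62, was at 167 and 166 CPM in wild type, 83.5 and 87.9 CPM in premalignant and 68.2 and 72.4 CPM in malignant cells. Map1lc3b, which coats the autophagosome, was at 137 and 139 CPM, 72.7 and 76.3 CPM, and 70.9 and 60.7 CPM, and its relative Gabarap at 164 and 144 CPM, 100.2 and 94.8 CPM, and 71.4 and 57.8 CPM. By contrast Becn1, which starts autophagosome formation, was at 128 and 141 CPM in wild type and at 105 to 144 CPM in the other libraries and was not called. These genes were named after their values were seen. The summed levels of the macrophage, granulocyte and dendritic cell markers were below wild type in the same libraries. The part of these cells was not tested.

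Of the cathepsin inhibitors, Cst3 (cystatin C) was at 121 and 121 CPM in wild type, 108 and 112 CPM in premalignant and 204 and 184 CPM in malignant cells, and was called higher in malignant cells (0.68 against wild type and 0.82 against premalignant cells). Cst7, an inhibitor found in myeloid and NK cells, fell from 3.40 and 1.98 CPM to 0.324 and 0.181 CPM and then 0.0418 and 0.143 CPM. Cstb was at 16.0 to 19.5 CPM in all libraries. These genes too were named after their values were seen.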
